A study of Mus musculus with 4 samples.

Results

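Transcripts of the oxidative phosphorylation machinery were measured in macrophages sorted from mice with and without T-cell acute lymphoblastic leukaemia (T-ALL). Genes were taken by symbol, as those beginning with Ndufa, Ndufb, Ndufc, Ndufs, Ndufv, Uqcr, Cox4 to Cox8 or Atp5, together with Sdha, Sdhb, Sdhc, Sdhd, Cycs and Cyc1. Of 17008 genes with a read in any library, 90 had such a symbol, and 84 of these reached 10 CPM (unique reads scaled to a library total of 1000000) in at least 1 library, as did 10315 genes in all. The 84 comprised 76 subunits, cytochrome c counted among them, and 8 assembly factors or related proteins whose symbols fall under the same pattern. By complex, 35 of 36 matched genes were kept for complex I, 4 of 4 for complex II, 9 of 9 for complex III, 12 of 15 for complex IV, 15 of 15 for ATP synthase and 8 of 10 for the assembly group. Cycs was kept as well. The 6 genes below the minimum were Ndufs5, Cox4i2, Cox6a2, Cox7a1, Atp5s and Ndufaf6. Closest to the minimum were Atp5s, with at most 9.79 CPM, and Cox6a2, with at most 9.24 CPM, on the outer side, and Ndufaf5, with at most 11.4 CPM, and Ndufaf2, with at most 11.5 CPM, on the inner side.

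The 4 groups were macrophages from bone marrow and spleen of leukaemic mice at day 21, and from bone marrow and spleen of normal mice. All mice were of strain C57BL/6J. The titles of the normal libraries give no day, and day 0 of the treatment protocol was taken to mean these libraries. The leukaemic hosts received GFP-labelled leukaemia cells taken from other leukaemic mice, were not irradiated, and were 6 to 8 weeks old at transfer. The same age is given for the normal mice. Each group is 1 library. The markers used in the sort, the sex and number of the mice, any pooling and the genetic lesion of the leukaemia are given by no source used here. Without replicates no test was run, and differences are described by size, with 95% intervals that cover counting error only.

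Oxidative phosphorylation passes electrons from NADH (complex I) and succinate (complex II) through ubiquinone, complex III and cytochrome c to oxygen at complex IV, and ATP synthase uses the proton gradient so built to make ATP. Most subunits are encoded in the nucleus and imported, and a few core subunits are encoded by mitochondrial DNA. In macrophages the balance between this pathway and glycolysis is known to vary with activation state. The subunits encoded by mitochondrial DNA were not analysed here.

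The libraries held 8979385 to 9809676 unique reads, so that 1 read was worth 0.102 to 0.111 CPM. Each library is a mixed RNA sample, and fewer cells of a type cannot be told apart from less RNA per cell. Of 13 macrophage marker symbols, among which Adgre1 and Emr1 name the same gene, 12 had reads, none of them at 0 in any library, and they summed to 8588 CPM in T-ALL bone marrow, 3616 CPM in normal bone marrow, 3306 CPM in T-ALL spleen and 6675 CPM in normal spleen. All 13 T-lineage markers had reads, and they summed to 883 CPM in T-ALL and 309 CPM in normal bone marrow, and to 3402 CPM in T-ALL and 886 CPM in normal spleen, with Rag2 at 0 reads in normal spleen. Neutrophil-precursor markers, with 9 of 9 read, summed to 17692 CPM in T-ALL and 34780 CPM in normal bone marrow, and to 143 CPM in T-ALL spleen and 362 CPM in normal spleen. Xist, expressed from the inactive X of females, stood at 0.638 CPM in T-ALL and 865 CPM in normal bone marrow, and at 420 CPM in T-ALL and 845 CPM in normal spleen. Reads of Ddx3y, a Y-linked gene, numbered 874 in T-ALL bone marrow, 532 in T-ALL spleen and 0 in both normal libraries, so the pairs also differ in sex-linked transcripts. T-ALL spleen thus held many reads of both Xist and Ddx3y, and the source of this was not tested.

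Promoters of 4 subunit genes are shown to put sequence beside the levels. They are, among genes with 1 listed start, the 2 with the NRF1 core and the 1 with the ETS core that had the largest difference in spleen, and Atp5b, the most abundant member. Each is the 250 bases before the RefSeq start on the gene's strand in build GRCm38.p6, written 5′ to 3′ in lower case, with the motif in capitals. Atp5k encodes a small membrane subunit of ATP synthase and Ndufs6 an accessory subunit of complex I. Their windows, at chr5:108434400-108434649 and chr13:73328483-73328732, both on the minus strand, hold the core recognised by the transcription factor NRF1 (GCGC, any base, then TGCGC, searched on both strands).
Atp5k: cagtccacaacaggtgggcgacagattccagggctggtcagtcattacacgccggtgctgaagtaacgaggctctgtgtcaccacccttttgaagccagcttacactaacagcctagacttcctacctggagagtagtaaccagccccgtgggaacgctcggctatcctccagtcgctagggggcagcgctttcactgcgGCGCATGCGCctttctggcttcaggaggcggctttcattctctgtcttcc
Ndufs6: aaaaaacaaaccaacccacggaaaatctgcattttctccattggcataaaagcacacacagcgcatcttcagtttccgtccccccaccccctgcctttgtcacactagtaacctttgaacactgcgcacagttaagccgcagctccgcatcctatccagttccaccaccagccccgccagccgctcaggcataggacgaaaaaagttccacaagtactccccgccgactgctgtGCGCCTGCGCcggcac
Uqcr11, a small subunit of complex III, at chr10:80406822-80407071 on the minus strand, holds the core bound by ETS factors such as GABP (CCGGAAG, both strands). Atp5b, which encodes the catalytic beta subunit of ATP synthase, at chr10:128083057-128083306 on the plus strand, holds neither.
Uqcr11: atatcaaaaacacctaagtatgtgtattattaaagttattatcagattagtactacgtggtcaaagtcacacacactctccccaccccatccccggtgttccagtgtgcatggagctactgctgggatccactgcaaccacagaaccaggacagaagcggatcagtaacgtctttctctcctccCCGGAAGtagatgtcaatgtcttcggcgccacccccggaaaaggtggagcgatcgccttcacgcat
Atp5b: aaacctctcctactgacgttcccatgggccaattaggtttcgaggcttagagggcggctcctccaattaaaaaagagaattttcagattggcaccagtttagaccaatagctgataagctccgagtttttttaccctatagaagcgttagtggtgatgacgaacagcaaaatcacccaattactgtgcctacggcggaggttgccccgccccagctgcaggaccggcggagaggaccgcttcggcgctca
Of the 76 subunits, 64 had a promoter in the RefSeq table. The NRF1 core was present in 12 of the 64 (18.8%), against 9.98% of 8360 genes at 10 CPM or more and 4.23% of all 27025 genes with a promoter. The ETS core was also present in 12 of the 64 (18.8%), against 17.0% of the genes at 10 CPM or more and 7.83% of all genes with a promoter. The median log2 fold in spleen, T-ALL over normal, was 0.57 for the 12 subunits with the NRF1 core and 0.67 for the 52 without it. It was 0.53 for the 12 with the ETS core and 0.70 for the 52 without it, so that subunits holding either core did not have the higher median. A match describes the letters of the window and is not evidence of binding.

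Subunit transcripts were more abundant in the T-ALL than in the normal spleen library and slightly less abundant in the T-ALL than in the normal bone marrow library. Summed over the 76 subunits, the level was 11279 CPM in T-ALL spleen and 6233 CPM in normal spleen, a ratio of 1.81 (1.79 to 1.83). In bone marrow the same sum was 7863 CPM in T-ALL and 8804 CPM in normal, a ratio of 0.893 (0.884 to 0.902). Normal spleen was thus the lowest and T-ALL spleen the highest of the 4 libraries, with the bone marrow libraries between them. T-lineage markers and cell cycle genes were also higher in T-ALL spleen, with marker sums of 3402 CPM in T-ALL and 886 CPM in normal spleen for the T lineage, and their part in the subunit levels was not tested. In bone marrow the neutrophil-precursor sum was 17692 CPM in T-ALL and 34780 CPM in normal, the cell cycle sum 3249 CPM in T-ALL and 5206 CPM in normal, and the macrophage marker sum 8588 CPM in T-ALL and 3616 CPM in normal. Their part was not tested either. The subunit sums correspond to 1.13% of all reads in T-ALL spleen, 0.623% in normal spleen, 0.786% in T-ALL bone marrow and 0.880% in normal bone marrow.

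The same order of libraries was found for each complex and for cytochrome c. In spleen the summed levels were 2194 CPM in T-ALL and 1498 CPM in normal for complex I, 666 CPM in T-ALL and 488 CPM in normal for complex II, and 1112 CPM in T-ALL and 677 CPM in normal for complex III. The spleen levels were 209 CPM in T-ALL and 78.5 CPM in normal for Cycs, 1536 CPM in T-ALL and 974 CPM in normal for complex IV, and 5562 CPM in T-ALL and 2518 CPM in normal for ATP synthase. The ratio of T-ALL to normal spleen ran from 1.37 (1.31 to 1.42) for complex II through 1.46 (1.43 to 1.5) for complex I, 1.58 (1.54 to 1.62) for complex IV and 1.64 (1.59 to 1.70) for complex III to 2.21 (2.17 to 2.24) for ATP synthase and 2.67 (2.45 to 2.91) for Cycs. In bone marrow the ratio of T-ALL to normal lay closer to 1, between 0.786 (0.727 to 0.850) for Cycs and 0.945 (0.922 to 0.970) for complex IV. The bone marrow sums were 1784 CPM in T-ALL and 1998 CPM in normal for complex I, 557 CPM in T-ALL and 611 CPM in normal for complex II, and 867 CPM in T-ALL and 934 CPM in normal for complex III. They were 119 CPM in T-ALL and 152 CPM in normal for Cycs, 1228 CPM in T-ALL and 1299 CPM in normal for complex IV, and 3308 CPM in T-ALL and 3811 CPM in normal for ATP synthase. The summed level of the assembly group went the other way, at 367 CPM in T-ALL spleen and 403 CPM in normal spleen (ratio 0.911, 0.869 to 0.955), and at 321 CPM in T-ALL and 299 CPM in normal bone marrow (ratio 1.07, 1.02 to 1.13). Cox7a2l decides both directions: without it the ratio was 1.08 (0.997 to 1.17) in spleen and 0.843 (0.776 to 0.915) in bone marrow, and the median log2 fold of all 8 genes was 0.13 in spleen and -0.30 in bone marrow.

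**Figure D1:**
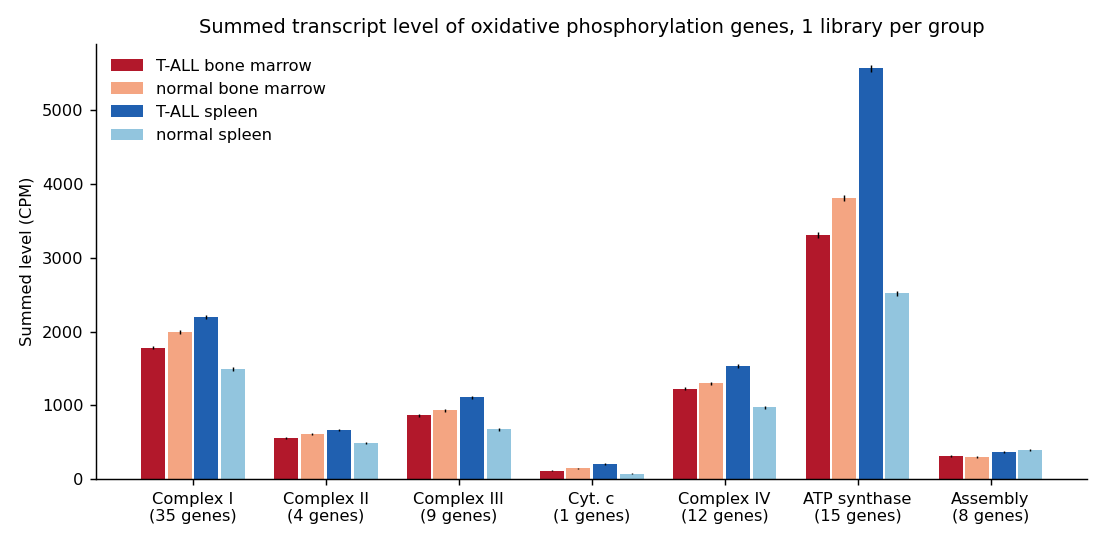
Summed transcript level (vertical axis, CPM) of the kept genes of each complex and of the assembly group, with 1 bar per library and 95% counting intervals as thin lines. ATP synthase is the tallest group, at 5562 CPM in T-ALL spleen and 2518 CPM in normal spleen, and T-ALL spleen stands above normal spleen in each group except the assembly group, whose sum is mostly Cox7a2l, at 222 CPM in T-ALL and 268 CPM in normal spleen.

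Gene by gene, 75 of the 76 subunits had a higher level in T-ALL than in normal spleen, where 47.2% of all genes at 10 CPM or more in either library did. The median log2 fold on CPM + 1 was 0.64 for the subunits and -0.06 over all genes. A gene was called higher or lower when its fold reached 1.5 on that scale and the higher of the 2 libraries had at least 10 CPM. By this rule 45 of the 75 subunits that met the minimum in the pair were higher in T-ALL spleen, against 20.7% of all genes, and 0 were lower, against 23.2% of all genes. At 2-fold, 15 were higher, against 10.7% of all genes. The counting interval of the ratio lay above 1 for 71 of the subunits. The subunit below 0 was Cox6b2, which had 7 reads in T-ALL spleen and 19 reads in normal spleen and stayed under the minimum there.

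Of the 35 complex I subunits, 16 were called higher in T-ALL spleen and 0 lower, with log2 folds between 0.04 and 1.89. The largest belonged to Ndufa12, an accessory subunit of the arm that reaches into the matrix, at 68.1 CPM in T-ALL spleen and 17.7 CPM in normal spleen, and 28.5 CPM in T-ALL and 30.2 CPM in normal bone marrow. T-ALL spleen stood alone at the top for Ndufa12, and the spleen ratio was 3.85 (3.23 to 4.61). Ndufab1, the mitochondrial acyl carrier protein that also serves fatty acid synthesis, was at 56.5 CPM in T-ALL spleen and 19.6 CPM in normal spleen (log2 fold 1.48), and 33.9 CPM in T-ALL and 38.8 CPM in normal bone marrow. At the other end, Ndufa6 stood at 62.0 CPM in T-ALL spleen and 60.1 CPM in normal spleen, and Ndufb11 at 78.9 CPM in T-ALL and 72.3 CPM in normal spleen, and both are accessory subunits. The counting intervals of these ratios, 0.915 to 1.16 and 0.981 to 1.22, include 1.

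The 7 nuclear-encoded core subunits of complex I, which carry the flavin, the iron-sulphur clusters and the quinone site, had log2 folds of at most 0.66 in spleen. Of these, 3 passed 1.5-fold: Ndufs1 at 111 CPM in T-ALL spleen and 69.5 CPM in normal spleen, Ndufv1 at 104 CPM in T-ALL and 67.2 CPM in normal spleen, and Ndufv2 at 83.6 CPM in T-ALL and 53.7 CPM in normal spleen. These are the core subunits of the electron input arm, Ndufv1 holding the flavin and the NADH site. Core subunits nearer the quinone site that stayed under 1.5-fold included Ndufs3 with a log2 fold of 0.39, Ndufs7 with 0.47 and Ndufs8 with 0.38. The 28 accessory subunits had a median of 0.56, with 13 called higher, and the 7 core subunits a median of 0.47. Per length, complex I subunits in T-ALL spleen ranged from 17.6 RPKM (CPM divided by the gene's length in kilobases) for Ndufa11 to 123 RPKM for Ndufa3, with a median of 72.5 RPKM, against a median of 49.1 RPKM in normal spleen. Over the 4 libraries Ndufb7 and Ndufa3, both accessory subunits, had the highest mean RPKM of the complex. Ndufb7 stood at 107 RPKM in T-ALL spleen, 82.7 RPKM in normal spleen, 117 RPKM in T-ALL bone marrow and 150 RPKM in normal bone marrow.

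Complex II, which is also an enzyme of the citric acid cycle, had the smallest summed ratio in spleen, and 1 of its 4 subunits was called higher, a share near the 20.7% of all genes. This was Sdhb, the iron-sulphur subunit, at 146 CPM in T-ALL spleen and 85.2 CPM in normal spleen, a ratio of 1.71 (1.56 to 1.87). Sdha, the flavoprotein that oxidises succinate, was at 310 CPM in T-ALL spleen and 258 CPM in normal spleen, a ratio of 1.20 (1.14 to 1.27). The membrane anchors Sdhc and Sdhd had ratios of 1.46 each. For Sdha and Sdhd normal bone marrow, not T-ALL spleen, was the highest library, at 325 and 119 CPM.

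In complex III, 7 of 9 subunits were called higher in T-ALL spleen. The core proteins Uqcrc1 and Uqcrc2 stood at 247 and 218 CPM in T-ALL spleen, against 151 and 137 CPM in normal spleen. The Rieske iron-sulphur protein Uqcrfs1 was at 131 CPM in T-ALL and 83.7 CPM in normal spleen, and cytochrome c1 (Cyc1), which hands electrons to cytochrome c, at 149 CPM in T-ALL and 73.9 CPM in normal spleen, a ratio of 2.01 (1.83 to 2.21). Cyc1 thus had a larger ratio than Uqcrfs1, at 1.56 (1.43 to 1.72), with counting intervals that do not overlap. Small subunits gave both ends of the range. Uqcr11 was at 68.4 CPM in T-ALL and 25.5 CPM in normal spleen, a ratio of 2.68 (2.30 to 3.14), followed by Uqcr10 at 60.6 CPM in T-ALL and 29.4 CPM in normal spleen, whereas the ubiquinone-binding protein Uqcrb was at 44.3 CPM in T-ALL and 41.7 CPM in normal spleen. The hinge protein Uqcrh, the highest of the complex per length at 224 RPKM in T-ALL spleen and 180 RPKM in normal spleen, was under 1.5-fold, with a log2 fold of 0.31.

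Cycs, the mobile carrier between complexes III and IV, which also takes part in apoptosis when released, was at 209 CPM in T-ALL spleen and 78.5 CPM in normal spleen. In bone marrow it was at 119 CPM in T-ALL and 152 CPM in normal. Its order of libraries was that of the subunit sum, with a log2 fold of 1.40 in spleen and -0.34 in bone marrow. Cycs has many processed pseudogenes in the mouse, and reads that also match those are not in unique counts, so its level is uncertain.

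Complex IV had 8 of its 11 subunits at 10 CPM in the spleen pair called higher in T-ALL. Cox7a2 was at 86.6 CPM in T-ALL spleen and 44.9 CPM in normal spleen, a ratio of 1.93 (1.71 to 2.18), and Cox7b at 99.2 CPM in T-ALL and 52.3 CPM in normal spleen, a ratio of 1.90 (1.69 to 2.12). Both are small accessory subunits, and they had the largest ratios among the kept subunits of the complex. Ndufa4, first assigned to complex I and later found in complex IV, was at 106 CPM in T-ALL spleen and 56.5 CPM in normal spleen, while normal bone marrow was the highest library at 120 CPM. Cox4i1, which contacts the catalytic core, was the highest of the complex per length, at 379 RPKM in T-ALL spleen and 287 RPKM in normal spleen, followed by Cox8a at 335 RPKM in T-ALL and 217 RPKM in normal spleen. Cox4i1, Cox6a1 and Cox6b1 did not reach 1.5-fold, with ratios of 1.32, 1.43 and 1.32.

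ATP synthase had the largest summed level and 12 of 15 subunits called higher in T-ALL spleen. Within the catalytic head, Atp5b was at 2166 CPM in T-ALL spleen and 647 CPM in normal spleen, a ratio of 3.35 (3.25 to 3.45), and at 917 CPM in T-ALL and 1072 CPM in normal bone marrow. Its partner Atp5a1, the alpha subunit, was at 1173 CPM in T-ALL and 610 CPM in normal spleen, a ratio of 1.92 (1.86 to 1.99), and at 795 CPM in T-ALL and 978 CPM in normal bone marrow. Alpha and beta are present in equal number in the enzyme, and their transcripts were in a different proportion in T-ALL spleen from the other libraries. Per length, Atp5b stood at 1153 RPKM and Atp5a1 at 480 RPKM in T-ALL spleen, a ratio of 2.40. That ratio was 1.38 in normal spleen, 1.5 in T-ALL bone marrow and 1.42 in normal bone marrow. Together these 2 genes took 29.6% of the subunit reads in T-ALL spleen, 20.2% in normal spleen, 21.8% in T-ALL bone marrow and 23.3% in normal bone marrow. Without them the summed ratio of T-ALL to normal spleen was 1.76 (1.72 to 1.81) for ATP synthase and 1.60 (1.58 to 1.61) for the remaining 74 subunits.

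Among the central stalk subunits, Atp5d (delta) was at 231 CPM in T-ALL spleen and 114 CPM in normal spleen and Atp5c1 (gamma) at 253 CPM in T-ALL and 164 CPM in normal spleen, both called higher. Atp5e (epsilon) was at 125 CPM in T-ALL and 99.1 CPM in normal spleen, under 1.5-fold, and it was the ATP synthase gene for which normal spleen was not the lowest library. Of the 10 subunits of the membrane part and the peripheral stalk, 8 were called higher, led by the c-ring genes Atp5g3 at 313 CPM in T-ALL and 117 CPM in normal spleen and Atp5g1 at 126 CPM in T-ALL and 49.3 CPM in normal spleen. Atp5h, a peripheral stalk subunit, and Atp5l, a small membrane subunit, stayed under 1.5-fold, with ratios of 1.47 (1.35 to 1.61) and 1.48 (1.34 to 1.63). The peripheral stalk subunit Atp5o, which confers sensitivity to oligomycin, had a ratio of 1.99 (1.82 to 2.17).

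**Figure D2:**
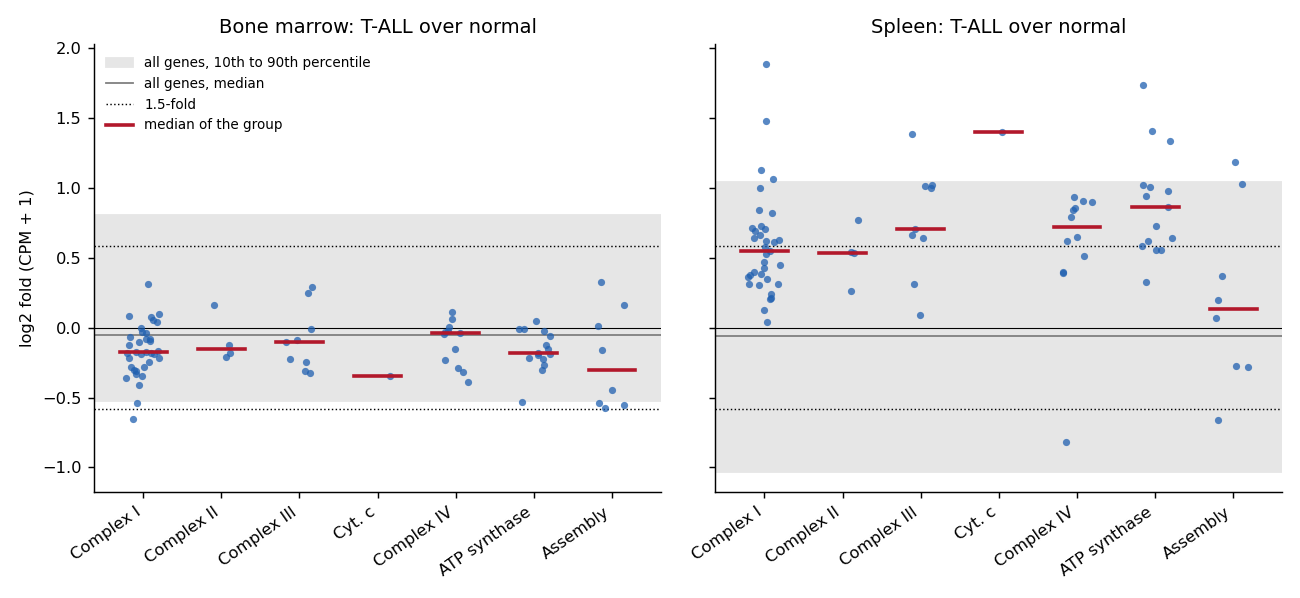
Log2 fold on CPM + 1, T-ALL over normal, for each kept gene (points) by complex, in bone marrow (left) and spleen (right), with group medians in red, the 10th to 90th percentile of all genes in grey and 1.5-fold as dotted lines. In spleen the subunit points lie above 0 except Cox6b2, at -0.82, and in bone marrow most lie slightly below 0.

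**Figure D3:**
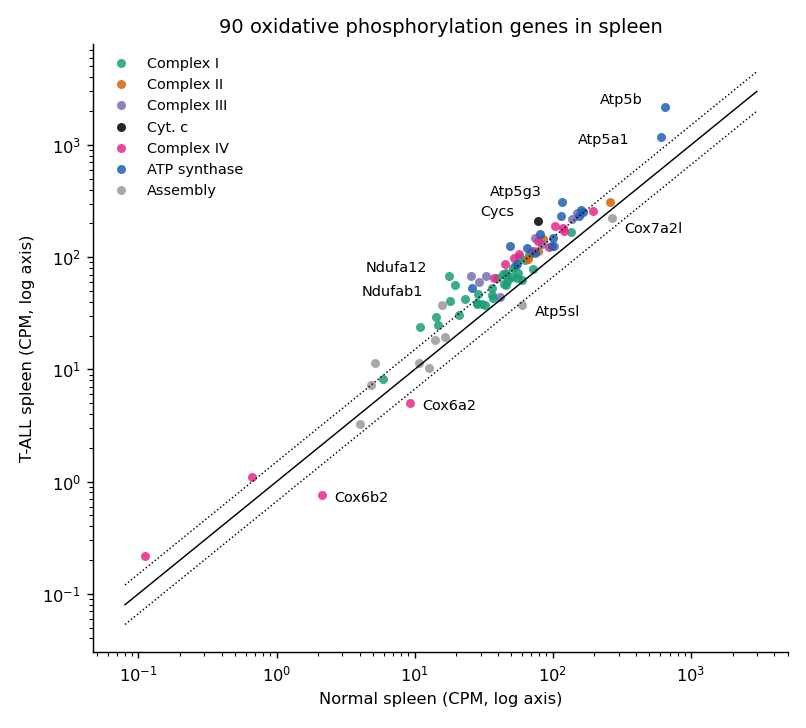
Level in T-ALL spleen (vertical, CPM, log axis) against level in normal spleen (horizontal, CPM, log axis) for the 90 matched genes, coloured by complex, with equality as a solid line and 1.5-fold as dotted lines. Atp5b, at 2166 CPM in T-ALL and 647 CPM in normal spleen, stands furthest above the line among abundant genes, and of the labelled genes Cox7a2l, Atp5sl, Cox6a2 and Cox6b2 lie below it.

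In bone marrow the subunits differed little between T-ALL and normal. The median log2 fold was -0.17 for the 76 subunits and -0.06 over all genes, and 63 of the 76 were below 0, against 55.9% of all genes. By the 1.5-fold rule 0 subunits were higher in T-ALL bone marrow, against 13.8% of all genes, and 1 was lower, against 7.61% of all genes. That subunit was Ndufv3, a small accessory subunit of the electron input arm, at 49.0 CPM in T-ALL and 77.9 CPM in normal bone marrow, a ratio of 0.630 (0.560 to 0.708). Its 46.3 CPM in T-ALL spleen and 36.2 CPM in normal spleen made normal bone marrow its highest library. The next lowest were Ndufc1 at -0.54 and Atp5g1 at -0.53. At the upper end the accessory subunit Ndufb4 was at 26.0 CPM in T-ALL and 20.7 CPM in normal bone marrow (log2 fold 0.31), Uqcrh at 110 CPM in T-ALL and 89.6 CPM in normal bone marrow (0.29) and Uqcrfs1 at 103 CPM in T-ALL and 86.4 CPM in normal bone marrow (0.25), none of them past 1.5-fold. The remaining extremes of each complex stayed within these limits, with Ndufb8 at 0.10, Sdhb at 0.16 and Sdha at -0.21, Uqcrc1 at -0.32 and Uqcr11 at -0.31, Cox4i1 at 0.11, Cox7b at 0.06, Cox6a1 at -0.32 and Cox6b2 at -0.39, and Atp5c1 at 0.05, Atp5e at -0.01 and Atp5a1 at -0.30 in log2 fold.

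Set across the 4 libraries, T-ALL spleen was the highest library for 62 of the 76 subunits, against 27% of the 10315 genes at 10 CPM or more. Normal spleen was the lowest for 67 of the 76, against 32.2%. Both held for 55 of the 76 subunits (72.4%), against 14.9% of genes. The full order, with T-ALL spleen above normal bone marrow, then T-ALL bone marrow and then normal spleen, held for 47 of the 76, against 12.1% of genes. For ATP synthase T-ALL spleen was the highest library for 15 of 15 genes and normal spleen the lowest for 14. A log2 fold below 0 in bone marrow and above 0 in spleen was found for 62 of 76 subunits, against 33.9% of genes, while 0 subunits were called lower in T-ALL bone marrow and higher in T-ALL spleen, against 3.24% of genes. The bone marrow and spleen folds, which share no library, were weakly related across the 76 subunits (Pearson r -0.13, Spearman rho -0.17, a description over genes of the same libraries).

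Between organs, normal spleen stood below normal bone marrow. Of the 76 subunits, 28 were called lower in normal spleen, against 25.1% of all genes, and 0 higher, against 24.1%, with a median of -0.44 against -0.05 over all genes. Those called lower included Atp5g1 with a ratio of 0.449 (0.401 to 0.501), Ndufv3 with 0.465 (0.407 to 0.530) and Ndufa4 with 0.469 (0.422 to 0.521). Uqcrh was the highest of the subunits in this comparison, at 101 CPM in normal spleen and 89.6 CPM in normal bone marrow. Among leukaemic mice, 15 of the 75 subunits at 10 CPM in the pair were called higher in spleen than in bone marrow. That share was slightly above the 15.1% of all genes. Called lower were 0, against 18.4% of all genes, and the median was 0.35 against 0.03. Atp5b had the largest log2 fold there, 1.24, followed by Ndufa12 with 1.23. The summed subunit level was 0.708 (0.700 to 0.716) of that in bone marrow for normal spleen, and 1.43 (1.42 to 1.45) times that in bone marrow for T-ALL spleen. In normal mice the marker sums differed more: 990 CPM in spleen and 5206 CPM in bone marrow for cell cycle genes, 362 CPM in spleen and 34780 CPM in bone marrow for neutrophil precursors, and 6675 CPM in spleen and 3616 CPM in bone marrow for macrophages. Of 12 macrophage markers, 10 were called higher in normal spleen, against 24.1% of all genes, and 2 lower, against 25.1%. Their median log2 fold was 4.05. All 15 cell cycle genes were called lower in normal spleen, against 25.1% of all genes. In leukaemic mice the cell cycle sum was 3922 CPM in spleen and 3249 CPM in bone marrow. The neutrophil-precursor sum was 143 CPM in spleen and 17692 CPM in bone marrow. The macrophage sum was 3306 CPM in spleen and 8588 CPM in bone marrow. The single macrophage markers were divided there. Of 12, 4 were called higher in T-ALL spleen, against 15.1% of all genes, and 4 lower, against 18.4%, with a median log2 fold of -0.20. T-lineage markers in leukaemic mice summed to 3402 CPM in spleen and 883 CPM in bone marrow, and B-cell markers to 1126 CPM and 371 CPM. For normal mice the T-lineage sum was 886 CPM in spleen and 309 CPM in bone marrow, and the B-cell sum 2339 CPM and 348 CPM. The part of these cells in the difference between organs was not tested.

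Isoforms of the same subunit were compared per length. Atp5g1, Atp5g2 and Atp5g3 encode the same mature c subunit with different import sequences. In T-ALL spleen Atp5g3 gave 47.2% of their summed RPKM, Atp5g2 36.8% and Atp5g1 16.1%. In normal spleen Atp5g2 led with 50.4%, followed by Atp5g3 with 36.6% and Atp5g1 with 13.0%. In T-ALL bone marrow the shares of Atp5g1, Atp5g2 and Atp5g3 were 15.5%, 43.5% and 41.0%, and in normal bone marrow 19.0%, 41.6% and 39.4%. T-ALL spleen was thus the library in which Atp5g3 exceeded Atp5g2. The c-subunit genes also have near-identical copies in the genome, and counts of unique reads can miss part of their transcripts.

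**Figure D4:**
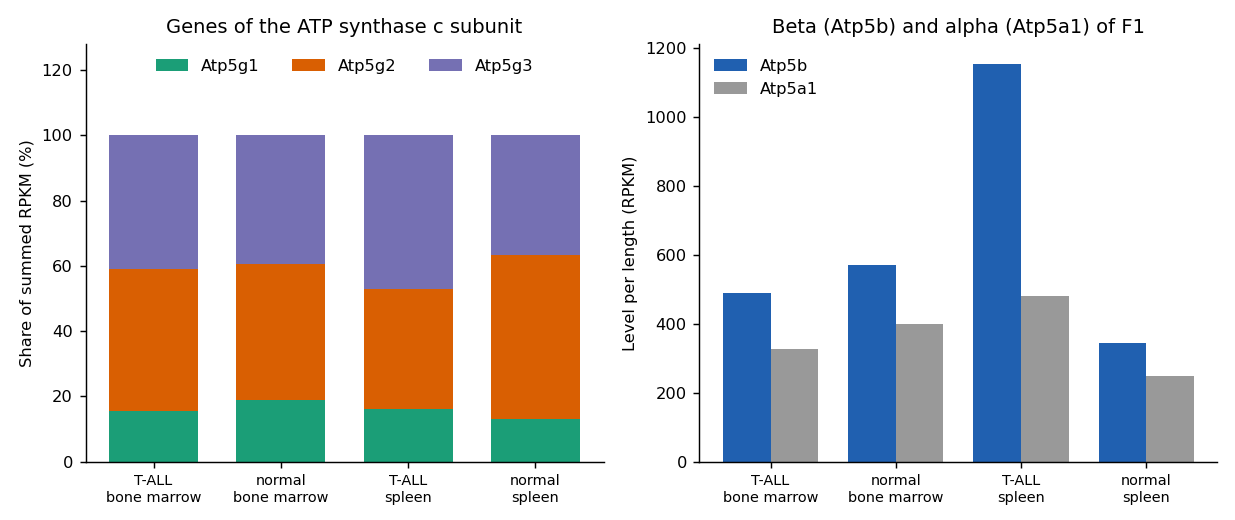
Left, share (%) of the summed RPKM of the 3 c-subunit genes in each library. Right, level per length (RPKM) of Atp5b and Atp5a1 in each library. Atp5g3 takes 47.2% in T-ALL spleen and 36.6% in normal spleen, and Atp5b stands at 1153 RPKM in T-ALL spleen and 345 RPKM in normal spleen.

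Isoforms of complex IV known from other tissues were low. Cox4i2, the lung isoform that responds to low oxygen, had 6 to 10 reads a library and at most 0.395% of the COX4 RPKM. Cox7a1, a heart and skeletal muscle isoform, had 1 or 2 reads a library. Cox6a2, another isoform of striated muscle, had 46 reads in T-ALL spleen and 83 reads in normal spleen, that is 2.24% of the COX6A RPKM in T-ALL and 5.68% in normal spleen, and 43 reads in T-ALL and 44 reads in normal bone marrow. It was highest in normal spleen, the library lowest in the ubiquitous Cox6a1, while the 5 of 6 muscle and brown fat markers with a read summed to 3.28 CPM in T-ALL spleen and 3.68 CPM in normal spleen. Of these Myh1 was at 0 reads in both spleen libraries, Ckm at 0 in normal spleen and Ucp1 at 0 in both bone marrow libraries. Cox6b2, best known from testis, was higher in the bone marrow libraries than in the spleen libraries. It had 90 reads in T-ALL and 126 reads in normal bone marrow, that is 7.80% of the COX6B RPKM in T-ALL and 10.2% in normal bone marrow, and 7 reads in T-ALL and 19 reads in normal spleen, that is 0.562% in T-ALL and 2.02% in normal spleen.

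Of the assembly group, Cox7a2l was the most abundant gene, at 222 CPM in T-ALL spleen and 268 CPM in normal spleen. In bone marrow Cox7a2l was at 209 CPM in T-ALL and 167 CPM in normal. It was highest in normal spleen, where 67 of 76 subunits were lowest, with ratios of T-ALL to normal of 0.826 (0.779 to 0.877) in spleen and 1.26 (1.18 to 1.34) in bone marrow. Atp5sl was at 37.3 CPM in T-ALL and 59.7 CPM in normal spleen, the member of the 84 called lower in T-ALL spleen, and at 30.0 CPM in T-ALL and 29.8 CPM in normal bone marrow. The complex I assembly factors Ndufaf4 and Ndufaf2 were called higher in T-ALL spleen. Ndufaf4 stood at 37.2 CPM in T-ALL and 15.8 CPM in normal spleen, a ratio of 2.35 (1.93 to 2.88), and Ndufaf2 at 11.5 CPM in T-ALL and 5.12 CPM in normal spleen, a ratio of 2.24 (1.57 to 3.24). In bone marrow the same pair were the lowest of the group, with log2 folds of -0.58 and -0.55, under 1.5-fold on CPM + 1 and so not called. Without a pseudocount their bone marrow ratios were 0.659 (0.542 to 0.800) and 0.654 (0.474 to 0.895), slightly past 1.5-fold. Ndufaf3 had a log2 fold of -0.28 in spleen. Ndufaf7, a methyltransferase acting on complex I, had 0.16 in bone marrow.

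Of 27 assembly factors with other symbols at 10 CPM or more in the spleen pair, 6 were called higher in T-ALL spleen, a share near the 20.7% of all genes, and 0 lower, against 23.2% of all genes. Their median log2 fold was 0.20, against -0.06 over all genes. Cox10, which makes the haem precursor of complex IV, was highest with 47.3 CPM in T-ALL and 21.2 CPM in normal spleen, followed by Lrpprc, which stabilises mitochondrial mRNA, with 147 CPM in T-ALL and 75.4 CPM in normal spleen. Cox14 and Surf1, both needed to assemble complex IV, were lowest, at -0.55 and -0.36. In bone marrow 2 of 27 were called lower, a share near the 7.61% of all genes, and 0 higher, against 13.8% of all genes. These were Cox18 at -0.71 and Ecsit at -0.61 in log2 fold, and the highest were Cox16 at 0.38 and Timmdc1 at 0.19. All 3 small ATP synthase proteins with other symbols, Usmg5, Atpif1 and 2010107E04Rik, were called higher in T-ALL spleen, against 20.7% of all genes. Usmg5 stood at 47.7 CPM in T-ALL and 21.7 CPM in normal spleen, and the ATPase inhibitor Atpif1 at 83.2 CPM in T-ALL and 54.7 CPM in normal spleen.

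Other mitochondrial genes were described alongside. Of 16 enzymes of the citric acid cycle and pyruvate dehydrogenase, 9 were called higher in T-ALL spleen, against 20.7% of all genes, and 0 lower, against 23.2%. Their median log2 fold was 0.64, against -0.06 over all genes. Idh3a, of NAD-dependent isocitrate dehydrogenase, was at 136 CPM in T-ALL and 48.9 CPM in normal spleen, and citrate synthase (Cs) at 463 CPM in T-ALL and 238 CPM in normal spleen, whereas Mdh2 stood at 354 CPM in T-ALL and 395 CPM in normal spleen and Dlst at 178 CPM in T-ALL and 157 CPM in normal spleen. In bone marrow 0 of the 16 were called in either direction, with Idh3b at 0.18, Pdha1 at 0.03, Idh3a at -0.42 and Dlat at -0.44. Of 7 carriers, porins and uncoupling proteins, 5 were called higher in T-ALL spleen, against 20.7% of all genes, with the phosphate carrier Slc25a3 at 675 CPM in T-ALL and 280.0 CPM in normal spleen and the ADP/ATP carrier Slc25a5 at 911 CPM in T-ALL and 393 CPM in normal spleen. Ucp2, of the uncoupling family, was at 1018 CPM in T-ALL and 1351 CPM in normal spleen and the porin Vdac3 at 0.49 in log2 fold. Their bone marrow folds were not called, from Slc25a4 at 0.28 and Ucp2 at 0.23 to Vdac2 at -0.32 and Vdac1 at -0.33.

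Of 12 genes of cristae and protein import, 9 were called higher in T-ALL spleen, against 20.7% of all genes. The chaperonin Hspd1 was at 753 CPM in T-ALL and 164 CPM in normal spleen and the cristae protein Chchd3 at 137 CPM in T-ALL and 53.5 CPM in normal spleen, with the fusion protein Opa1 at 0.34 and Timm44 at 0.47 in log2 fold. In bone marrow 1 of 13, Chchd6, was called lower, against 7.61% of all genes, at 8.30 CPM in T-ALL and 14.4 CPM in normal, while Timm50 was at -0.58, Tomm20 at 0.01 and Chchd3 at 0.18 in log2 fold. Among 11 regulators of mitochondrial biogenesis, 1 was called higher and 1 lower in T-ALL spleen, against 20.7% and 23.2% of all genes. Tfam, which packages mitochondrial DNA and takes part in its transcription, was at 102 CPM in T-ALL and 57.0 CPM in normal spleen. The nuclear receptor Esrra was at 40.8 CPM in T-ALL and 64.5 CPM in normal spleen. The next highest and next lowest at 10 CPM or more were the transcription factor Nrf1 at 0.58, just under 1.5-fold, and Tfb2m at 0.25 in log2 fold. Ppargc1a, the coactivator best known for driving this programme in muscle and brown fat, stayed at 0.638 to 1.11 CPM in the 4 libraries. In bone marrow Myc, at 147 CPM in T-ALL and 258 CPM in normal, and Tfb1m, at 7.55 CPM in T-ALL and 12.1 CPM in normal bone marrow, were the 2 of 11 called lower, against 7.61% of all genes, and Esrra stood at 0.47 and Yy1 at 0.00 in log2 fold.

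Markers of other cells and of proliferation also differed between the libraries. All 15 cell cycle genes were called higher in T-ALL spleen, against 20.7% of all genes, with a median log2 fold of 2.06 and a sum of 3922 CPM in T-ALL spleen and 990 CPM in normal spleen. They ranged there from 1.40 for Mki67 and 1.74 for Ccna2 to 2.52 for Ccnb1 and 2.72 for Cdk1. In bone marrow 12 of the 15 were called lower, against 7.61% of all genes, with a sum of 3249 CPM in T-ALL and 5206 CPM in normal, from -0.96 for Plk1 and Rrm2 to -0.45 for Pcna. The cell cycle sum thus ran above normal in T-ALL spleen and below normal in T-ALL bone marrow, as the subunit sum did. The highest library differed, being normal bone marrow for the cell cycle sum, at 5206 CPM. For the subunit sum it was T-ALL spleen, at 11279 CPM. T-lineage markers at 10 CPM or more were called higher in T-ALL for 10 of 10 in spleen, against 20.7% of all genes, and 10 of 11 in bone marrow, against 13.8%. Macrophage markers were called lower in T-ALL spleen for 10 of 12, against 23.2% of all genes, and higher in T-ALL bone marrow for 11 of 12, against 13.8%. B-cell markers, with 7 of 7 read, summed to 1126 CPM in T-ALL and 2339 CPM in normal spleen, erythroid markers, with 7 of 7 read, to 118 CPM in T-ALL and 130 CPM in normal spleen, and dendritic cell markers, with 6 of 6 read, to 196 CPM in T-ALL and 835 CPM in normal spleen. In bone marrow the B-cell sum was 371 CPM in T-ALL and 348 CPM in normal. The erythroid sum there was 198 CPM in T-ALL and 93.1 CPM in normal, and the dendritic cell sum 200 CPM in T-ALL and 159 CPM in normal. The part of these other cells, of proliferation and of the sex-linked difference in the subunit levels was not tested.

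The 3 X-linked subunits, Ndufa1, Ndufb11 and Cox7b, were looked at beside the sex-linked difference between libraries. Their sum was 217 CPM in T-ALL spleen and 153 CPM in normal spleen, a ratio of 1.42 (1.33 to 1.52), and 195 CPM in T-ALL and 207 CPM in normal bone marrow, a ratio of 0.942 (0.884 to 1.00). The single ratios in spleen were 1.09 (0.981 to 1.22) for Ndufb11, 1.38 (1.17 to 1.63) for Ndufa1 and 1.90 (1.69 to 2.12) for Cox7b. The part of the sex-linked difference in these levels was not tested. Across the 76 subunits the spleen log2 fold was weakly related to the mean log2 CPM (Pearson r 0.24, Spearman rho 0.06) and hardly to gene length (r 0.07, rho 0.04), as descriptions over genes that share the same libraries.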

How the data were processed

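RNA sequencing tables of 4 sorted macrophage libraries were used, 1 library per group. The labels' protocols name an RNeasy column kit for total RNA and Illumina's standard library preparation. Per the file headers, the deposited tables give, per gene, the count of uniquely mapped reads, the length and the RPKM (reads per kilobase of that length, scaled to the library total). The deposited counts are whole numbers and a gene without a line was set to 0. The deposited RPKM was recomputed from count, length and total to within 9.15e-06%. For the aligner, the strand setting and the genome build the entry is: not given in the sources used here. Hence overlapping genes and genes with near-identical copies are uncertain.

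CPM was a gene's reads over the library's total. Log2 folds are on CPM + 1, a scale that shrinks differences of weakly expressed genes. Folds given as ratios carry no pseudocount and have exact binomial 95% intervals. These intervals treat reads as independent molecules and cover neither the spread between animals nor that between libraries. No count model was fitted, since groups have no replicates. The alternatives were TMM sizes (edgeR 4.0.16), median-of-ratios factors (DESeq2 1.42.0, R 4.3.3), the deposited RPKM, pseudocounts of 0.1 and 5, a minimum of 50 CPM or none, a 2-fold threshold, and leaving out the assembly proteins. Intervals came from scipy 1.17.1, tables from pandas 2.3.3 and numpy 2.4.6, and plots from matplotlib 3.10.9, under Python 3.11.15, and the fold calculation was tested on simulated data.

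The members, the lists, the thresholds and the rule for named genes were chosen with earlier results of these data known. Named were the 2 highest and 2 lowest members of each complex in each comparison of T-ALL with normal, the 2 highest per length, core, catalytic and isoform members, and the extremes of each other list. Promoters were taken from a RefSeq table of GRCm38.p6. Values of some single genes under this rule are not reported here.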

Additional observations from a re-analysis of the deposited data

Results flagged for a closer look

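The summed level of subunits was higher in T-ALL than in normal spleen and lower in T-ALL than in normal bone marrow, which is the reason these values are listed. The log2 ratio of T-ALL to normal in spleen minus that in bone marrow was 1.02 for the 76 subunits. By complex it was 0.713 for complex I, 0.583 for complex II, 0.824 for complex III, 0.738 for complex IV and 1.35 for ATP synthase (complex V), and it was 1.76 for cytochrome c. The assembly group had the opposite sign, -0.237, being lower in T-ALL spleen and higher in T-ALL bone marrow. Without Cox7a2l the remaining 7 assembly genes had a difference of 0.36. Each organ has 1 library per condition, so the difference between the organs was not tested.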

How the results depend on the processing

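No sign of a summed or median fold over the 84 genes changed under the alternatives run. The log2 ratio of the summed level in spleen, T-ALL over normal, was 0.811, and 0.793 with TMM sizes, 0.840 with median-of-ratios factors, 0.734 from RPKM and 0.856 without the assembly proteins. In bone marrow it was -0.153, and -0.134 with TMM sizes and -0.131 from RPKM. Spleen over bone marrow, it was 0.509 in T-ALL (0.484 with TMM sizes, 0.539 with median-of-ratios factors, 0.434 from RPKM), and -0.456 in normal mice (-0.431 from RPKM, -0.498 without assembly proteins). At 2-fold, calls of higher genes dropped to 17 of the 84 in T-ALL spleen over normal spleen (47 at 1.5-fold), to 2 in T-ALL spleen over T-ALL bone marrow (18) and to 0 in normal spleen over normal bone marrow (2, and 0 without assembly proteins). Calls of lower genes in normal spleen over normal bone marrow were 30, against 4 at 2-fold and 18 with a minimum of 50 CPM. Lower calls in T-ALL spleen over normal spleen were 1, against 0 at 2-fold or without assembly proteins and 3 with no minimum. In bone marrow they were 1, against 3 with a pseudocount of 0.1, 0 at 2-fold and 2 with no minimum. In T-ALL spleen over T-ALL bone marrow they were 0, and 1 with no minimum. Fewer genes enter with a higher minimum and a stricter fold passes fewer, and other causes were not tested. Single genes moved in 2 settings, both for Cox6b2 with a pseudocount of 5 in the comparisons between organs, where its sign was kept.

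No paired analysis was possible because each group has 1 library and the labels give no replicate numbers, and no library could be left out. A floor of 3 reads, chosen and not measured, corresponded to 0.306 to 0.334 CPM.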
